A study of Bos taurus with 9 samples.

Results

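B2M, the light chain shared by MHC class I molecules, and CD74, the invariant chain of MHC class II, were looked up by gene symbol among the genes measured in rectal tissue of beef steers. An Ensembl identifier was found for 1 of these 2 genes, B2M (ENSBTAG00000012330), among 24616 genes in all. No identifier for CD74 was found among the 2051 gene symbols used here, so CD74 was not analysed here. The class II level was instead followed with HLA-DRA (ENSBTAG00000010645), the alpha chain of the class II molecule with which the invariant chain assembles. HLA-DRA is another gene, and none of its values stand for a level of CD74.

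RNA-Seq was carried out on whole rectal tissue taken close to the rectal-anal junction after slaughter, with 1 library per steer. The 5 super-shedders (SS; steers 274, 287, 294, 299 and 310) had shed E. coli O157 in feces at high density when they were identified, though not all of them still did so at slaughter, and E. coli O157 was not found in the 4 non-shedders (NS; steers 108, 152, 165 and 242). All were crossbred feedlot steers on a finishing diet based on barley, none was inoculated, so SS and NS are observed and not assigned groups, and the sources used here do not state the age of the steers. Values are CPM, the reads of a gene scaled to the same total of reads on genes in every library, and the totals before scaling ranged from 5412523 reads in SS 274 to 12278503 reads in NS 108.

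MHC class I molecules show peptides from inside the cell to CD8 T cells and are made by nearly every nucleated cell. Each consists of a polymorphic heavy chain, a short peptide and B2M, without which the heavy chain is not held stably at the cell surface. Class II molecules are made mainly by B cells, macrophages and dendritic cells, where the invariant chain blocks the peptide groove until cathepsins degrade it, and interferon gamma can raise both classes, also in gut epithelium.

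B2M was detected at high read numbers in every library. Its level was 3340.1, 4529, 2729 and 3739 CPM in NS 108, 152, 165 and 242. For SS 274, 287, 294, 299 and 310 the level was 2212, 4655, 603, 2573 and 4478 CPM. Steer 294 lay far below the other steers and was represented by 4520 reads, whereas the highest SS and the highest NS were close to each other and the groups overlapped. The mean was 3584 ± 755 CPM in NS (SD, n = 4) and 2904 ± 1690.1 CPM in SS (SD, n = 5). The difference of SS minus NS was -0.59 ± 0.57 (SE) on the scale of log2(CPM + 0.5), with an adjusted p of 0.934 in limma. The exact two-sided permutation test over steers gave p = 0.413, where 0.0159 is the smallest p that 4 against 5 steers allow. Without SS 294 the difference was -0.095 and without both SS 274 and SS 294 it was 0.10, so its direction rested on these steers. Both are SS and held the lowest B2M levels of all steers, so leaving them out could only raise the SS mean. With all steers the difference was -0.19 in edgeR and -0.17 in DESeq2. In bulk tissue, fewer cells that make a transcript and less of it per cell cannot be told apart.

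**Figure D1:**
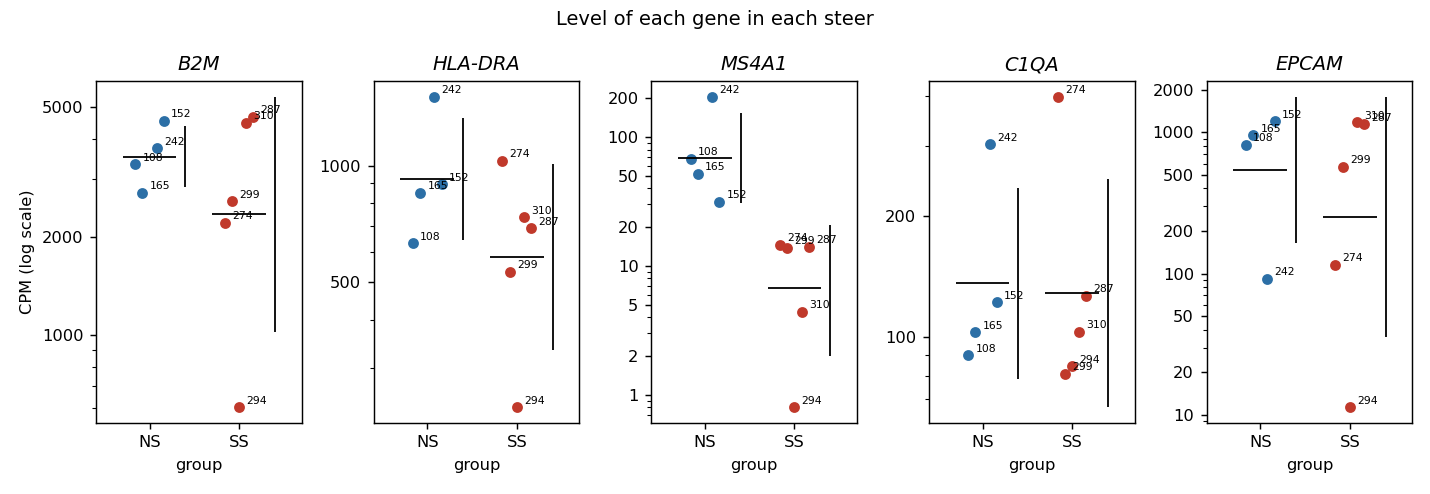
Level in CPM (vertical log axes, each with its own range) of B2M, HLA-DRA and the reference genes MS4A1, C1QA and EPCAM, with 1 point per steer (blue NS, red SS, steer number beside it), a horizontal line at the mean of log2(CPM + 0.5) and a vertical line for 1 SD to each side. B2M, HLA-DRA, MS4A1 and EPCAM were lowest in SS 294, and the groups were apart for MS4A1 only.

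HLA-DRA, the conserved chain of the class II molecule, was present at 630.1, 896, 849.9 and 1507 CPM in NS 108, 152, 165 and 242. Its level in SS 274, 287, 294, 299 and 310 was 1028, 689, 238, 533 and 735 CPM. The highest value was in NS 242 and the lowest in SS 294, and the groups overlapped. The mean was 971 ± 376 CPM in NS (SD, n = 4) and 645 ± 289 CPM in SS (SD, n = 5). The difference of SS minus NS was -0.67 ± 0.42 (SE) on the log2 scale, with an adjusted p of 0.928 in limma and p = 0.190 in the exact permutation test. It was -0.34 without SS 294, -0.43 without NS 242 and -0.11 without both (an omission chosen after seeing the data), so these steers held most of the estimate.

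Across all 15410 genes tested, limma called 0 genes (0%) for a difference of SS from NS, a call being an adjusted p under 0.05 together with a log2 fold change beyond 1 in either direction. An unadjusted p below 0.05 was found for 610 genes (3.96%). The groups did not overlap for 348 genes (2.26%). On read counts recovered from the CPM, edgeR called 0 genes and DESeq2 called 19 (0.123%), and neither B2M nor any of the listed antigen presentation genes was among them.

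The 3 reference genes were read only to set B2M and HLA-DRA beside cell types of the tissue. MS4A1, the B cell surface protein CD20, was at 68.0, 31.3, 51.7 and 206 CPM in NS 108, 152, 165 and 242. Among SS, steers 274, 287, 294, 299 and 310 were at 14.6, 14.1, 0.801, 13.8 and 4.43 CPM. Every SS steer lay below every NS steer. The value of SS 294 came from 6 reads, with a 95% Wilson interval of 0.367 to 1.75 CPM that covers counting error only. The log2 difference of SS minus NS was -3.26 ± 0.81 (SE), with an adjusted p of 0.928 in limma. In DESeq2 it was -3.02 with an adjusted p of 0.0522, just above the threshold, while over the other alternatives the adjusted p was 0.595 or higher.

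C1QA, a complement chain made by tissue macrophages, was at 90.0, 122, 103 and 303 CPM in NS 108, 152, 165 and 242. In SS 274, 287, 294, 299 and 310 it was at 399, 126, 84.4, 80.8 and 103 CPM. SS 274 and NS 242 were high and the other steers were close together, so the groups overlapped. The log2 difference was -0.08 ± 0.52 (SE; limma adjusted p of 0.982), and its sign changed under 9 of 19 alternatives.

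EPCAM, an adhesion protein of epithelial cells, was at 817, 1195, 951 and 92.2 CPM in NS 108, 152, 165 and 242. The SS steers 274, 287, 294, 299 and 310 were at 115, 1136, 11.3, 572 and 1171 CPM. NS 242, SS 274 and SS 294 were low in this epithelial gene, and the groups overlapped. The log2 difference was -1.10 ± 1.39 (SE; limma adjusted p of 0.936), and it was 0.0072 without SS 294, -0.28 in edgeR and -0.26 in DESeq2.

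Over the 9 steers, 9 correlations of log2(CPM + 0.5) were computed, each with exact two-sided permutation tests over pairings and adjusted over the 9. B2M and HLA-DRA had a Pearson r of 0.74 (exact p = 0.108, adjusted p = 0.194) and a Spearman rho of 0.30 (exact p = 0.437, adjusted p = 0.655). Without SS 274 and SS 294, the steers farthest from the median of B2M, r was 0.27 (n = 7, exact p = 0.613). Without SS 294 alone r was 0.03, so the relation between the class I and the class II gene rested on that library.

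**Figure D2:**
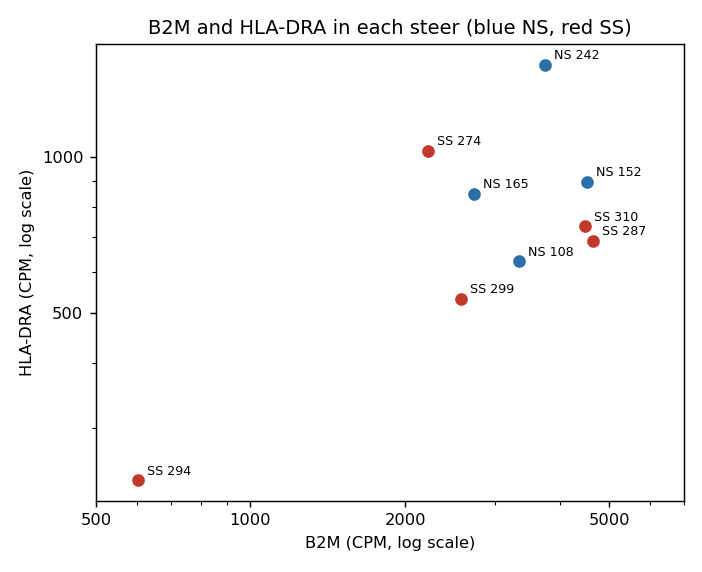
Level of HLA-DRA against B2M in CPM on log axes, with 1 point per steer. SS 294 lies alone at the lower left, and without it r was 0.03.

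B2M and EPCAM had an r of 0.84 (exact p = 0.0252, adjusted p = 0.0757) and a rho of 0.77 (exact p = 0.0214, adjusted p = 0.0642). This relation did not pass the adjustment. Without SS 274 and SS 294 its r was 0.19 (n = 7, exact p = 0.685) and its rho was 0.64 (n = 7, exact p = 0.139). Its r was 0.96 without NS 242 (exact adjusted p = 0.00759), and the exact adjusted p of r ranged up to 0.771 over the alternatives. NS 242 was the steer in which EPCAM was low at 92.2 CPM while B2M was at 3739 CPM. B2M and MS4A1 had an r of 0.60 (exact p = 0.130, adjusted p = 0.195) and a rho of 0.25 (exact p = 0.521, adjusted p = 0.669), and r was -0.25 without the same pair of SS steers (n = 7, exact p = 0.575). B2M and C1QA had an r of 0.16 (exact p = 0.809, adjusted p = 0.809) and a rho of 0.38 (exact p = 0.313, adjusted p = 0.562). Without that pair r was 0.34 (n = 7, exact p = 0.535) and rho was 0.75 (n = 7, exact p = 0.0663), while r was -0.26 without SS 294 alone.

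HLA-DRA and C1QA had an r of 0.70 (exact p = 0.00651, adjusted p = 0.0586) and a rho of 0.85 (exact p = 0.00607, adjusted p = 0.0273). The rank relation passed the adjustment. Counted by the size of r on both sides, in place of 2 times the smaller tail, the exact p of this r was 0.0373 and the adjusted p 0.0990. Without NS 242 and SS 294, the steers farthest from the median of HLA-DRA, r was 0.76 (n = 7, exact p = 0.0151) and rho was 0.75 (n = 7, exact p = 0.0663). HLA-DRA and MS4A1 had an r of 0.79 (exact p = 0.0177, adjusted p = 0.0757) and a rho of 0.62 (exact p = 0.0857, adjusted p = 0.193), and r was 0.06 without NS 242 and SS 294 (n = 7, exact p = 0.892). HLA-DRA and EPCAM had an r of 0.38 (exact p = 0.328, adjusted p = 0.372) and a rho of 0.13 (exact p = 0.744, adjusted p = 0.744), with an r of -0.40 without NS 242 and SS 294 (n = 7, exact p = 0.410). The CPM of all genes in a library share 1 total, and whether a correlation of B2M differs from that of HLA-DRA was not tested. Pairings were permuted over NS and SS together, so a shift between the groups also enters r, rho and their p. For MS4A1 the groups were apart, and its correlations within groups were not tested.

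The log2 ratio of HLA-DRA to B2M was -2.41, -2.34, -1.68 and -1.31 in NS 108, 152, 165 and 242. It was -1.11, -2.75, -1.34, -2.27 and -2.61 in SS 274, 287, 294, 299 and 310. The ratio was highest in SS 274, NS 242 and SS 294, the steers in which EPCAM was lowest. Its mean was -1.93 ± 0.53 in NS (SD, n = 4) and -2.01 ± 0.75 in SS (SD, n = 5), and the difference of -0.08 was smaller than the spread between steers. Its sign was not stable, since it ranged from -0.31 without SS 274 to 0.13 without NS 242 and was -0.61 without SS 274 and SS 294. Reads were not corrected for gene length, so the ratio compares steers and not the genes with each other.

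Markers of several cell types differed between the same libraries. All 8 of 8 listed epithelial genes, among them KRT19 and EPCAM, had an identifier. Their summed level was 5112, 5669, 4789 and 596 CPM in NS 108, 152, 165 and 242. The epithelial sum in SS 274, 287, 294, 299 and 310 was 729.8, 6234, 61.1, 2361 and 6113 CPM. The 6 of 6 genes of all leukocytes, among them PTPRC and LAPTM5, summed to 1189, 912, 973 and 4271 CPM in the NS steers in the same order. In the SS steers in the same order they summed to 759, 858, 233, 851 and 723 CPM. Thus B2M was lowest in the library that was low in both marker lists, while in NS 242 it was at 3739 CPM beside few epithelial and many leukocyte transcripts.

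The 4 of 4 macrophage genes, among them C1QA and C1QB, had their highest sums of 1113 CPM in SS 274 and 854 CPM in NS 242, with 209.5 to 330.2 CPM in the other steers. The 5 of 5 B cell genes, among them MS4A1 and CD22, had sums of 65.0 to 564 CPM in NS and 4.14 to 38.8 CPM in SS. The 2 of 3 dendritic cell genes with an identifier, LAMP3 and CCR7, had their highest sum of 288 CPM in NS 242 and their lowest of 3.87 CPM in SS 294. CCR7 made up 160 CPM of the sum in NS 242. The study also links CCR7 to movement of T cells, so the sum is not particular to dendritic cells. The only T cell gene of 5 with an identifier, CD3G, was likewise highest in NS 242 (107 CPM) and lowest in SS 294 (2.67 CPM). The 2 of 2 plasma cell genes, JCHAIN and XBP1, summed to 239 CPM in SS 274 and 206 CPM in SS 294 and to 1361 to 5446 CPM in the other steers.

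The sum of the 6 of 6 smooth muscle genes, among them MYH11 and TAGLN, ranged from 306 CPM in SS 274 to 48230 CPM in SS 294. The 4 of 4 fibroblast genes, led by COL1A2, were highest in SS 274 (20735 CPM) and SS 294 (12910 CPM), and the 2 of 2 endothelial genes, led by PECAM1, were also highest there (484 and 426 CPM). None of the marker genes with an identifier was at 0 in any steer. Identifiers came from the study's lists of its most abundant and its differentially expressed genes, so a gene at 0 was unlikely to have one. The part of this tissue composition in the levels of B2M and HLA-DRA was not tested.

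Of 45 listed antigen presentation genes, 30 had an identifier and all 30 passed the filter of at least 0.5 CPM in at least 4 steers. Identifiers came mainly from the study's list of its most abundant genes, so passing was close to fixed. All genes tested include scarcer genes, so the shares over them describe an unlike set. None was called by limma in either direction, and 0 of 30 had an unadjusted p below 0.05. In SS the estimate was lower for 27 and higher for 3 of them, with a median log2 difference of -0.29, beside 64.8% lower and a median of -0.13 over all genes tested. Scaling by median-of-ratios moved the median of all genes to 0.0096, with 48.8% of them lower in SS, and then 21 of the 30 genes were lower, with a median of -0.14. Without SS 294 alone, 20 of 30 were lower and the median was -0.076, beside 64.5% and -0.10 over all genes, so the excess over all genes went with that library. Without both SS 274 and SS 294, the steers lowest in B2M, 13 of 30 were lower. The median was then 0.042, beside 61.0% lower and a median of -0.076 over all genes. In DESeq2 the median was -0.076, beside 0.049 over all genes. The groups did not overlap for 1 of 30 genes, JAK1, against the 2.26% of all genes, and with median-of-ratios or TMM scaling, a comparison chosen after seeing the data, for 0 of 30, against 1.41% and 1.59% of all genes. SS 294 held the lowest value for 18 of 30 listed genes and for 29.7% of all genes, and NS 242 held the highest for 13 of 30 and for 27.8% of all genes.

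**Figure D3:**
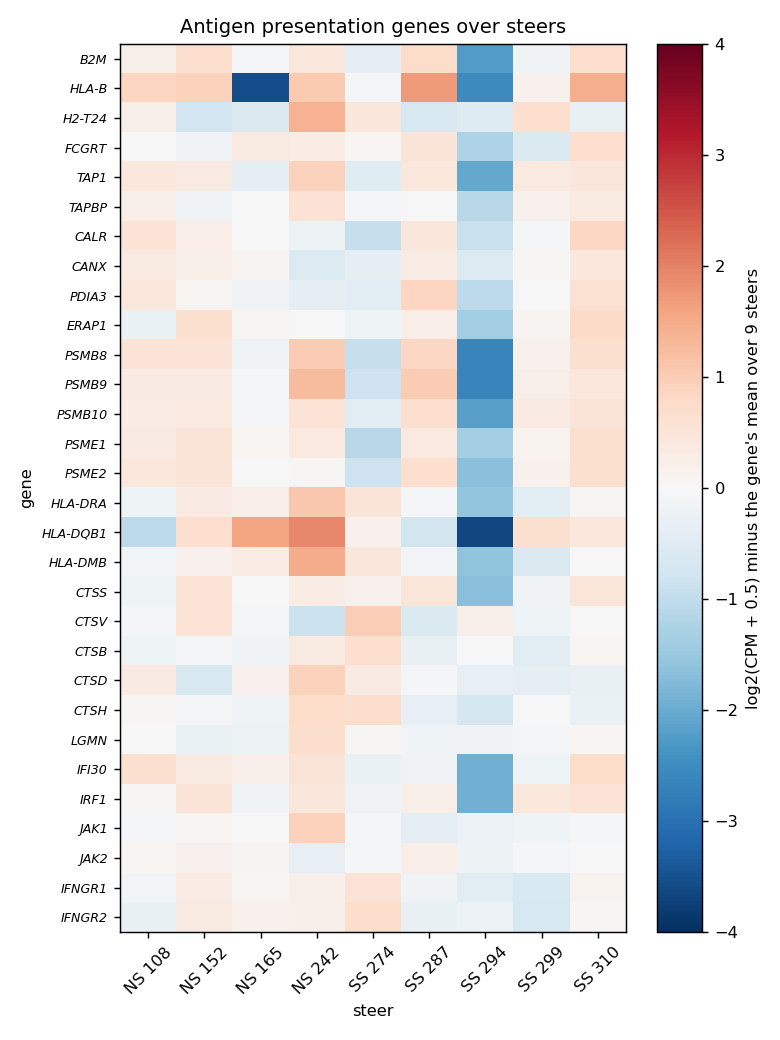
Difference of log2(CPM + 0.5) from the mean of each gene over 9 steers (color) for B2M and 29 of the 30 listed genes (vertical axis) in each steer (horizontal axis). SS 294 is lowest for 17 of these 29 listed genes, and HLA-B stands out as low in NS 165.

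Among partners of B2M, 3 of 9 listed genes had an identifier. The class I heavy chain gene HLA-B was at 598, 614, 27.6 and 677 CPM in NS 108, 152, 165 and 242. For SS 274, 287, 294, 299 and 310 the level was 308, 1073, 55.8, 370.3 and 894 CPM. NS 165 was far below the other NS steers while its B2M was at 2729 CPM. Cattle carry several closely similar and highly polymorphic class I genes, so reads may be shared with or lost to other copies, and the level of HLA-B in a steer is uncertain. The log2 difference of SS minus NS was 0.32 ± 1.12 (SE; limma adjusted p of 0.969), and it was -0.80 without NS 165. B2M and HLA-B had an r of 0.69 (exact p = 0.1002, adjusted p = 0.194) and a rho of 0.85 (exact p = 0.00607, adjusted p = 0.0273), with an r of 0.70 without SS 274 and SS 294 (n = 7, exact p = 0.0591) and 0.99 without NS 165 (exact adjusted p = 0.00625), and the exact adjusted p of r ranged up to 0.316 over the alternatives. HLA-DRA and HLA-B had an r of 0.40 (exact p = 0.331, adjusted p = 0.372) and a rho of 0.18 (exact p = 0.644, adjusted p = 0.724), with an r of -0.29 without NS 242 and SS 294 (n = 7, exact p = 0.555). The class I-like gene H2-T24 ranged from 71.3 CPM in NS 152 to 318 CPM in NS 242, and FCGRT, the heavy chain of the neonatal Fc receptor, ranged from 34.0 CPM in SS 294 to 128 CPM in SS 310.

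Of 8 genes that load peptides onto class I molecules, 6 had an identifier, and the estimate was lower in SS for all 6, with a median of -0.23 beside -0.13 over all genes tested. TAP1, a subunit of the transporter that brings peptides into the endoplasmic reticulum, was at 170.0, 160.3, 97.7 and 244 CPM in NS 108, 152, 165 and 242. In SS 274, 287, 294, 299 and 310 it was at 90.5, 171, 30.2, 167 and 175 CPM, and the groups overlapped. Its log2 difference was -0.58 ± 0.52 (SE; limma adjusted p of 0.931) and -0.13 without SS 294. All 6 estimates changed sign under at least 1 of 19 alternatives. The sign changed under 11 for PDIA3, under 8 for CANX and under 5 for ERAP1. For TAP1 and TAPBP it changed under 2 each, and for CALR under 1.

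All 5 of 5 immunoproteasome genes, which encode catalytic subunits that cut proteins into peptides for class I (PSMB8, PSMB9 and PSMB10) or subunits of the proteasome activator (PSME1 and PSME2), had an identifier and were lowest in SS 294. PSMB8, a catalytic subunit, was at 163, 160.1, 99.0 and 223 CPM in NS 108, 152, 165 and 242. Values in SS 274, 287, 294, 299 and 310 were 57.5, 196, 17.2, 125 and 172 CPM. SS 294 and SS 274 were lowest, as for B2M. Its log2 difference was -0.88 ± 0.66 (SE; limma adjusted p of 0.929) and -0.31 without SS 294. PSMB10, another catalytic subunit, ranged from 9.21 CPM in SS 294 to 69.4 CPM in SS 287, with a log2 difference of -0.51 ± 0.53 (SE; limma adjusted p of 0.936) that was -0.017 without SS 294. The median over the 5 genes was -0.59.

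Of 8 class II chains and exchange factors, 3 had an identifier, and all 3 were highest in NS 242 and lowest in SS 294. HLA-DMB, a chain of the factor that exchanges the invariant chain fragment for a peptide, was at 63.2, 76.4, 82.6 and 189 CPM in NS 108, 152, 165 and 242. The SS steers 274, 287, 294, 299 and 310 were at 92.7, 62.9, 22.0, 45.3 and 66.7 CPM, and its log2 difference was -0.83 ± 0.44 (SE; limma adjusted p of 0.928). That difference was -0.52 without SS 294, -0.49 without NS 242 and -0.18 without both. The polymorphic beta chain gene HLA-DQB1 ranged from 58.1 to 457 CPM in NS and from 9.08 to 189 CPM in SS, and its log2 difference was -1.41 ± 0.92 (SE; limma adjusted p of 0.928), or -0.66 without SS 294 and -0.28 without NS 242 and SS 294. As for HLA-B, reads of other alleles and copies make its level in a steer uncertain.

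All 7 of 7 genes that process the invariant chain or its cargo had an identifier, of which 5 were lower and 2 higher in SS by their estimates, with a median of -0.27. CTSS, the cathepsin that carries out late cleavage of the invariant chain, ranged from 148 CPM in SS 294 to 686 CPM in NS 152. IFI30, a reductase of the class II pathway, ranged from 32.8 to 44.2 CPM in NS and from 7.21 to 48.1 CPM in SS, with a log2 difference of -0.78 ± 0.45 (SE; limma adjusted p of 0.928) that was -0.39 without SS 294. CTSV and CTSB, other cathepsins, were highest in SS 274, at 98.8 and 442 CPM.

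Of 8 interferon regulators, 6 had an identifier, and the median of their differences was -0.20. JAK1, a kinase of interferon receptors, was at 493, 531, 503 and 963 CPM in NS 108, 152, 165 and 242. In SS 274, 287, 294, 299 and 310 it was at 480.4, 393, 427, 447.5 and 482 CPM, so that in CPM every SS steer lay below every NS steer, by a small margin apart from NS 242. With median-of-ratios scaling the groups overlapped, and the log2 difference was -0.27. Its log2 difference was -0.42 ± 0.22 (SE; limma adjusted p of 0.928) and -0.19 without NS 242. IRF1, a transcription factor induced by interferon, ranged from 42.2 CPM in SS 294 to 236 CPM in SS 310.

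The patterns most like that of B2M over the 9 steers, by Pearson r on log2(CPM + 0.5) among genes with a symbol, were those of FAM91A1 (0.98), PSMB10 (0.97), LIPA (0.96), CCL5 (0.96) and PSMB8 (0.96). Those most like HLA-DRA were HLA-DMB (0.98), SAT1 (0.95), FAM49B (0.94), STK17B (0.93) and CNIH4 (0.92). Among the other 15409 genes tested, 298 had an r of at least 0.9 with B2M and 54 had one with HLA-DRA. All 10 of these genes, like B2M and HLA-DRA, had their lowest value in SS 294, and they were chosen by r, so no test is given.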

How the data were processed

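The authors made stranded, rRNA-depleted libraries and mapped paired reads to UMD3.1 with TopHat2; HTSeq and edgeR are also named in their processing notes, without a role. The deposited values are CPM per Ensembl gene. In every library 100% of them were whole multiples of 1 read, within 0.01 reads, so read counts were recovered. Gene symbols came from the study's gene lists, of which part was used here. Groups came from the sample labels.

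The main test was limma with an intensity trend on log2(CPM + 0.5), which understates changes of low genes, with Benjamini-Hochberg adjustment over the 15410 genes that reached 0.5 CPM in 4 or more steers. Exact permutation p-values are 2 times the smaller tail, as scipy computes them; this definition was settled after p-values counted by the size of the statistic had been seen. The code was tested on simulated data. Other pseudocounts, filters, scalings, edgeR, DESeq2 and omitted steers were tried. Members and lists were chosen with earlier results of these data known. Named are the listed genes, the cell type markers and the 5 genes most like each of B2M and HLA-DRA; the listed genes whose log2 differences are printed were chosen after their values were seen. Of the listed genes that enter the counts, 1 is neither named nor drawn. R 4.3.3, limma 3.58.1, edgeR 4.0.16, DESeq2 1.42.0 and scipy were used.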

Additional observations from a re-analysis of the deposited data

Results flagged for a closer look

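In 70 groups of steers examined (B2M, the listed antigen presentation genes, the 3 reference genes and the ratio of HLA-DRA to B2M, each in NS and in SS), 6 held a steer whose gap to its neighbour took up more of the group's range than Dixon's critical value, where chance alone would give about 3.5. HLA-B in NS 165 lay below the other NS steers, with a gap of 0.961 of the range on the log2 scale. JAK1 in NS 242 lay above the other NS steers (0.890), and EPCAM in the same steer lay below them (0.851). TAPBP in SS 294 lay below the other SS steers (0.712), and so did IRF1 in that steer (0.726). C1QA in SS 274 lay above the other SS steers (0.720). The low B2M of SS 294 did not reach the critical value of 0.71 for 5 steers.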

How the results depend on the processing

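No called difference was there to lose: B2M, HLA-DRA, MS4A1, C1QA, EPCAM and the 30 listed genes were not called under any of 19 alternatives. DESeq2 called 19 genes in all, and leaving out each steer in turn gave 0 to 1. The log2 difference of B2M ranged from -0.83 to -0.095 with each steer left out. It was 0.10 without both SS 274 and SS 294, the steers lowest in B2M. HLA-DRA ranged from -0.87 to -0.34 with each steer left out and was -0.11 without NS 242 and SS 294, an alternative chosen after seeing the data. In edgeR and DESeq2, differences over 1.5 times smaller than in limma were -0.19 and -0.17 for B2M, -0.44 and -0.42 for HLA-DRA, -0.28 and -0.26 for EPCAM, -0.28 and -0.27 for TAP1, -0.38 and -0.36 for PSMB8, -0.12 and -0.11 for PSMB10 and -0.47 and -0.45 for IFI30. Without SS 274 and SS 294 EPCAM was at 0.75, PSMB8 at 0.059, PSMB10 at 0.21 and TAP1 at 0.10. Without NS 242 and SS 294, C1QA was at 0.46, PSMB10 at 0.069 and TAP1 at 0.074. C1QA was at 0.073 with median-of-ratios scaling, 0.027 with TMM, 0.24 in edgeR and 0.26 in DESeq2. With each steer left out, the difference ranged from -0.48 to 0.31 for C1QA, -1.95 to 0.0072 for EPCAM and -0.80 to 0.99 for HLA-B. Of the 30 listed genes, 24 changed direction under at least 1 alternative and 6 under none.

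With each steer left out, r of B2M ranged from 0.028 to 0.81 with HLA-DRA, -0.067 to 0.77 with MS4A1, -0.26 to 0.39 with C1QA, 0.48 to 0.96 with EPCAM and 0.61 to 0.99 with HLA-B. For HLA-DRA it ranged from 0.56 to 0.87 with MS4A1, 0.57 to 0.82 with C1QA, -0.71 to 0.70 with EPCAM and -0.049 to 0.72 with HLA-B. Without both SS 274 and SS 294, r was -0.25 for B2M with MS4A1, -0.70 for HLA-DRA with EPCAM and -0.022 for HLA-DRA with HLA-B. The adjusted p of HLA-DRA with C1QA was 0.0446 without NS 165 and 0.0375 without NS 242, and 0.0511 to 0.162 under the other alternatives (exact tests). Counted by the size of r, the exact adjusted p of r was 0.0990 in place of 0.0586 for HLA-DRA with C1QA, 0.0633 in place of 0.0757 for B2M with EPCAM and for HLA-DRA with MS4A1, and 0.0990 in place of 0.194 for B2M with HLA-DRA and with HLA-B. The cause of these changes was not tested. The alternatives for CD74 were not run, because no identifier for it was used here. MS4A1 in SS 294 rested on 6 reads, though that library held more reads in total than SS 274 and SS 299. The lowest library of B2M held 4520 reads.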
